A study of Mus musculus with 6 samples.

Results

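The type I interferon-stimulated genes examined here are 42 genes named in a fixed list, out of 46517 genes with counts, in CD8 T cells exposed to basophil supernatant. They were listed by name, and all 42 were matched to a gene of the deposited tables. The rule uses no measured value, but the list was chosen with earlier results of these data known. Counts over it therefore describe these genes and are not independent support. The study compared 2 groups of 3 poly(A) RNA-seq libraries, from CD8 T cells given the supernatant of basophils kept with IL-3 (IL-3 group) or with PBS (PBS group). Basophils are rare granulocytes, and IL-3 is the cytokine that sustains and activates them.

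Both groups started from naive T cells of the spleen and lymph nodes of C57BL/6J mice, whose age is not given. The T cells of both groups were stimulated for 3 days with plate-bound anti-CD3 at 5 µg/mL, anti-CD28 at 0.5 µg/mL and IL-2 at 100 units/mL. The supernatant was present from day 1 to day 2. It came from sorted basophils cultured for 2 days with IL-2 at 100 units/mL, to which IL-3 (3 ng/mL) or PBS had been added. The IL-3 of that medium and the products of the basophils were therefore given together and cannot be told apart here. Whether replicates came from different mice or cultures is not stated, so each p-value reflects only library-to-library spread, possibly of technical origin.

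Type I interferons, the interferon alphas and interferon beta, bind the receptor pair IFNAR1 and IFNAR2, which signals through the kinases JAK1 and TYK2. A transcription factor complex that holds STAT2 and IRF9 then binds the interferon-stimulated response element in target promoters and induces a set of antiviral genes. Many of these targets also respond to interferon gamma, and in T cells the program is known to affect survival and proliferation as well as viral replication.

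Libraries held from 17377052 to 22174902 expected counts, and a count of 0 allows a level of up to 0.135 to 0.173 CPM (counts scaled to library size). These limits cover counting error only. Of 8 CD8 T cell markers all were present, with a summed level of 3578 to 3894 TPM (abundance scaled for transcript length and library) with PBS and 2537 to 2789 with IL-3, and 7 of the 8 fell (median log2 fold change over the 8 of -0.45, with Cd8a at -1.17). Of 8 basophil or mast cell markers, Mcpt8, Fcer1a, Ms4a2 and Prss34 were at 0 counts in all 6 libraries, and the 8 together summed to 0.852 to 1.28 TPM with PBS and 0.205 to 0.391 with IL-3. Kit made up most of this sum in every library and fell (log2 -2.16 ± 0.39 (SE), adjusted p = 0.00038). All 5 neutrophil markers were at 0 counts, and 7 dendritic cell markers, with Siglech and Klk1 at 0, summed to 1.75 to 2.85 and 3.38 to 4.97 TPM. Zbtb46 made up most of that sum in every library and rose (log2 0.73 ± 0.22 (SE), adjusted p = 0.019). The 3 CD4 T cell markers summed to 4.26 to 6.67 TPM with PBS and 11.4 to 12.4 with IL-3. Zbtb7b made up most of that sum in every library and rose (log2 1.498 ± 0.16 (SE), adjusted p = 2.7e-06). Cd40lg was lower with IL-3 in every library but was not called (log2 -1.22 ± 0.51 (SE), adjusted p = 0.084). Cd4 itself had 8, 15 and 14 counts with PBS and 0, 11 and 8 with IL-3. Markers of macrophages summed to 2.198 to 4.06 and 2.27 to 4.203 TPM and those of B cells to 3.98 to 4.89 and 4.06 to 4.53 TPM. The 4 NK cell and 5 erythroid markers each summed to at most 10 counts in any library. The part of the marker differences in the results below was not tested. PBS replicate 2 stood apart from the other libraries on the second principal component of all genes. Leaving it out gave a median log2 fold change of the tested members of -0.72, beside the value below. Counts of calls with each library left out are given at the end, beside those over all genes.

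Of the interferon-stimulated genes, 24 were expressed at a lower level with IL-3 supernatant, but 3 were expressed at a higher level, and Rsad2, Ifi44 and Ifit3b had at most 7 counts in any library. Of the 42 genes, 35 passed the filter on low counts. In edgeR's quasi-likelihood test with Benjamini-Hochberg adjustment over 12407 genes, 24 of the 35 fell, 3 rose (Ifitm2, Ifitm3 and Oasl1) and 8 did not pass the threshold of 0.05. Across all genes tested, 16.1% were called lower and 14.8% higher, 30.9% in either direction. The median log2 fold change, IL-3 minus PBS, was -0.78 over the 35 and -0.0047 over all genes tested.

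A fall of at least 2-fold was called in 10 of the 35, against 3.44% of all genes tested. The CPM of the groups did not overlap in 27 of the 35, with 25 lower and 2 higher, where 22.6% of all genes tested lay apart in the lower direction and 21.0% in the higher, 43.6% in either. Ifit3, Isg20, Oasl1 and Rtp4 lay under the filter's limit of 0.526 CPM in every library of 1 group, so they could enter the test only through the group where they were high. Without them 21 of 31 fell and 2 rose, with a median of -0.76, and 7 of the 31 fell at least 2-fold. The groups did not overlap in 23 of the 31, with 22 lower and 1 higher. In bulk RNA, fewer cells of a kind and less RNA per cell cannot be told apart, and this holds for every difference given here.

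Each library followed its group. The median member lay 0.36, 0.38 and 0.22 above its 6-library mean (log2 scale) in PBS replicates 1, 2 and 3, and -0.37, -0.25 and -0.37 from it in the IL-3 replicates. No IL-3 library had a positive median and no PBS library a negative one. PBS replicate 3 held the lowest PBS value of 16 of the 35 genes and PBS replicate 2 the highest of 15. The level summed over the 42 genes was 1802, 1707 and 1808 TPM with PBS and 1122, 1109.8 and 1122 TPM with IL-3. Shisa5 made up 859.5 and 486 TPM of these sums on average.

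**Figure D1:**
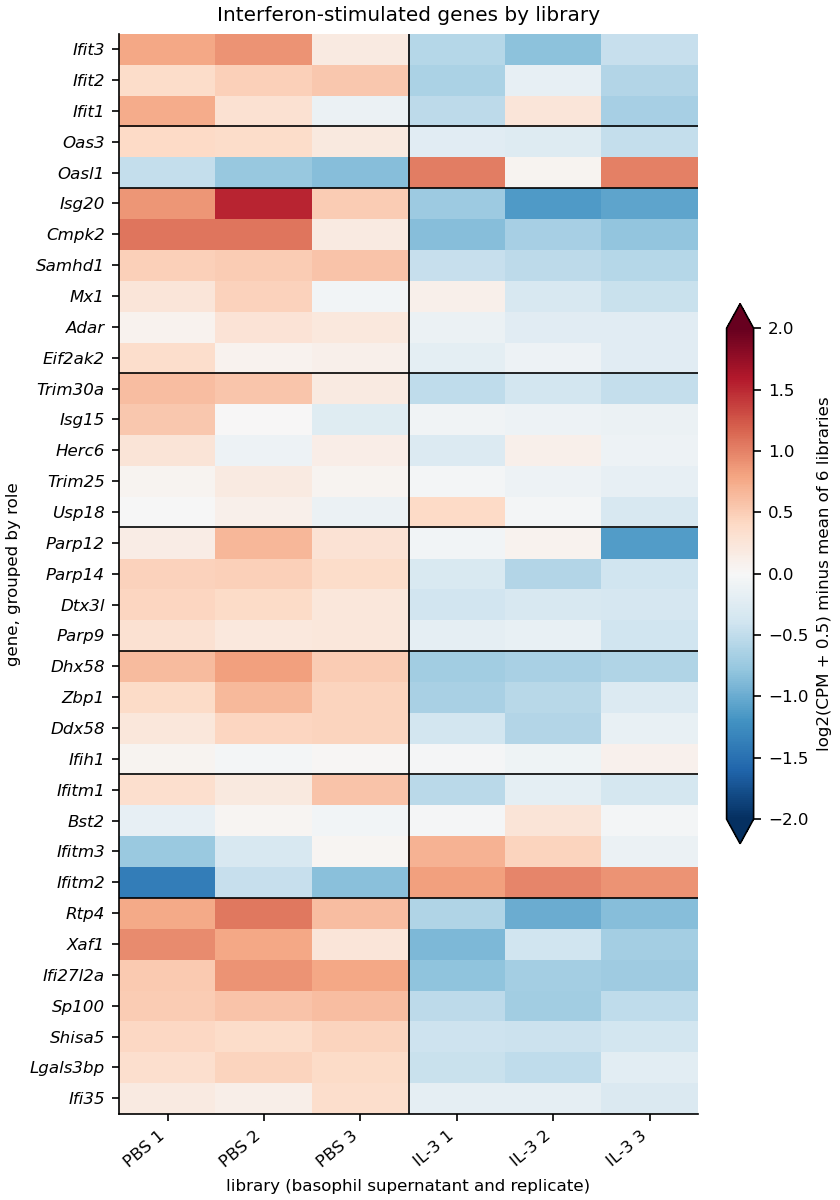
Level of the 35 tested genes (rows, grouped by role) in 6 libraries (columns), as log2(CPM + 0.5) minus the mean of the 6 libraries; red is above and blue below that mean. Most rows are red in the 3 PBS columns and blue in the 3 IL-3 columns, while Oasl1 and Ifitm2 show the opposite; Ifitm3 does so in replicates 1 and 2 of each group, but not in replicate 3.

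Promoter sequences show where the response element lies in genes that fell, rose or did not pass the test. RefSeq windows of 300 bases (GRCm38.p6, 250 before and 50 after an annotated start) were at hand for 32 of the 42 genes. The core of the element (GAAA, any 2 bases, GAAA), searched on both strands with overlapping copies counted apart, was in a window of 15 of the 32. It was in 3.44% of all 32851 windows and in 3.88% of the 9155 tested genes that had a window. The members were listed as interferon targets, so this share is a description. The next lines give the stretches with a core upstream of the start for genes of each outcome, 5′ to 3′ on the gene's strand, with the core in capitals (reading TTTC, any 2 bases, TTTC where it is on the other strand).
Isg15: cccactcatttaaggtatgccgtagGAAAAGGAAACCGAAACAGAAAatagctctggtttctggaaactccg
Bst2: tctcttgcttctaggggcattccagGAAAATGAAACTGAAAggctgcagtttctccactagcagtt
Ifit1: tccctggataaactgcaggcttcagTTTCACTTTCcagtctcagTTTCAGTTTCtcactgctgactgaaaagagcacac
Ifit3: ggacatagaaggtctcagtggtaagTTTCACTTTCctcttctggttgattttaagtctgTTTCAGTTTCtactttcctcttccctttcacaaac
Oas3: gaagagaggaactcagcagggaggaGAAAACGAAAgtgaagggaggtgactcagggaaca
Trim30a: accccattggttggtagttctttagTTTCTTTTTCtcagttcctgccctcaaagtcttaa
Ifitm2: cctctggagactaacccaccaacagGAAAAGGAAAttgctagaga
In GRCm38.p6 these lie at chr4:156200850-156200921 (Isg15, minus strand), chr8:71537562-71537627 (Bst2, minus strand), chr19:34640760-34640838 (Ifit1, plus strand) and chr19:34583348-34583441 (Ifit3, plus strand). The others lie at chr5:120777700-120777759 (Oas3), chr7:104465195-104465254 (Trim30a) and chr7:140955988-140956032 (Ifitm2), all on the minus strand. Isg15 carries 3 overlapping copies whose first bases lie 78, 72 and 66 bases before the start, and Bst2 carries 2 overlapping copies. The stretch of Ifit3 is identical to that of its close copy Ifit3b at chr19:34607744-34607837.

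Genes with a core match and genes without one both included genes that fell. Of 12 tested genes with a match, 6 fell and 2 rose, with a median log2 fold change of -0.51. Of 15 tested genes with a window and no match, 12 fell and 1 rose, with a median of -0.87, and the difference was not tested. The shorter palindrome TTCNNNGAA, the core of the gamma-activated site through which interferon gamma acts, was in a window of 10 of the 32 genes and in 8.33% of the 9155 tested genes. A match is a description of letters and not a shown binding site.

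**Figure D2:**
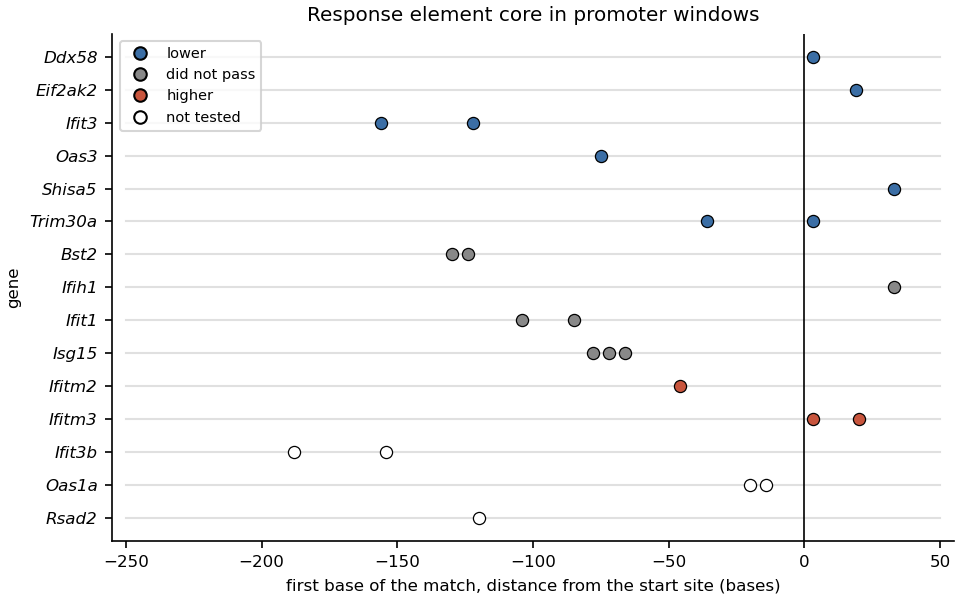
First base of each match of the response element core (either strand) against the annotated start site, in bases, for the 15 genes with a match in their RefSeq window; colour gives the outcome of the test. Genes that fell, rose or did not pass are found both with matches upstream and with matches after the start.

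Sensors that detect viral nucleic acid were divided: 3 of 4 fell and 1 did not pass. Ddx58 (ENSMUSG00000040296, chr4:40203773-40239828, minus strand in GRCm38) encodes RIG-I, the sensor of short and triphosphate-ended RNA, and was at 11.6, 13.5 and 13.6 CPM with PBS and 7.52, 6.39 and 8.88 CPM with IL-3. The groups did not overlap and the log2 fold change was -0.76 ± 0.15 (SE), adjusted p = 0.00068. Dhx58, which encodes the RIG-I-like regulator LGP2, was at 4.79, 5.54 and 4.33 CPM with PBS and 1.596, 1.67 and 1.74 CPM with IL-3. All 3 IL-3 libraries lay below the lowest PBS library (-1.55 ± 0.25 (SE), adjusted p = 0.00015). Zbp1, a sensor of Z-form nucleic acid that can trigger necroptosis, was at 14.8, 17.7 and 15.4 CPM with PBS and 6.95, 7.47 and 9.14 CPM with IL-3. The groups lay apart (-1.02 ± 0.14 (SE), adjusted p = 1.9e-05).

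The remaining sensor, Ifih1, encodes MDA5, which recognises long double-stranded RNA. Its level was 9.96, 9.31 and 9.81 CPM with PBS and 9.48, 9.01 and 10.2 CPM with IL-3. The ranges of the groups overlapped, and the fitted difference of -0.02 had a 95% interval of -0.30 to 0.26 (adjusted p = 0.934). The fitted falls of Ddx58, Dhx58 and Zbp1 lie outside this interval, although the difference between these genes was not tested.

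Of 6 tested antiviral effectors outside the OAS and IFIT families, 5 fell and 1 did not pass. Samhd1 (ENSMUSG00000027639, chr2:157097533-157135265, minus strand), a hydrolase that depletes the nucleotides needed for DNA synthesis, was at 286, 293 and 305 CPM with PBS and 149, 143 and 138 CPM with IL-3. The highest IL-3 library was well under the lowest PBS library, and the fall was 2.06-fold (log2 -1.04 ± 0.05 (SE), adjusted p = 2.3e-10). Adar, the editor that converts adenosine to inosine in double-stranded RNA, was at 109.8, 126 and 121 CPM with PBS and 96.4, 89.3 and 88.99 CPM with IL-3 (-0.38 ± 0.06 (SE), adjusted p = 0.00023). The groups of Adar lay apart, but its annotated exons share 16.8% of their bases with the neighbour Chrnb2 on the other strand, and the strand setting of the counts is not given. Eif2ak2, the kinase PKR that stops translation when double-stranded RNA is present, was at 36.2 ± 3.94 CPM with PBS and 28.3 ± 1.32 CPM with IL-3 (-0.36 ± 0.09 (SE), adjusted p = 0.0074).

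Isg20 and Cmpk2 fell further, from low levels. Isg20, an RNA exonuclease, was at 2.62, 4.32 and 1.88 CPM with PBS and 0.515, 0.2702 and 0.306 CPM with IL-3. PBS replicate 2 was highest, and every IL-3 library was below 0.52 CPM, at 10, 6 and 6 counts, so the gene passed the filter only through the PBS group (-3.002 ± 0.46 (SE), adjusted p = 7.9e-05). Cmpk2 (ENSMUSG00000020638, chr12:26469204-26479837, plus strand), a mitochondrial nucleotide kinase, was at 3.73, 3.71 and 1.77 CPM with PBS and 0.618, 0.765 and 0.664 CPM with IL-3. PBS replicate 3 was lowest of its group but still above all IL-3 libraries (-2.16 ± 0.39 (SE), adjusted p = 0.00042). Rsad2, which encodes viperin and lies 12752 bases from Cmpk2 on chromosome 12, was barely counted, at 5, 1 and 0 counts with PBS and 3, 1 and 1 with IL-3. The ratio of its summed levels, PBS over IL-3, was 1.37 with a 95% exact counting interval of 0.349 to 5.68, which allows a change in either direction.

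The GTPase Mx1 was at 2.78, 3.32 and 2.17 CPM with PBS and 2.47, 1.71 and 1.53 CPM with IL-3. IL-3 replicate 1 lay within the PBS range, and the log2 fold change of -0.53 (95% interval -1.20 to 0.13) did not pass (adjusted p = 0.227). C57BL/6 mice carry an Mx1 allele that makes no working protein. Mx2, its neighbour on chromosome 16, had 18, 20 and 7 counts with PBS and 6, 5 and 8 with IL-3 and was not tested. Its summed level with PBS was 2.71 times that with IL-3 (95% exact counting interval 1.55 to 4.90), and PBS replicate 3 lay within the IL-3 range.

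The IFIT proteins, which bind viral RNA and restrain its translation, are encoded side by side on chromosome 19, and 2 of the 3 tested genes fell. Ifit2 (ENSMUSG00000045932, chr19:34550694-34576419, plus strand) was the best measured, at 15.02, 16.3 and 17.05 CPM with PBS and 7.31, 10.3 and 7.505 CPM with IL-3. The groups did not overlap, and IL-3 replicate 2 was the highest of its group (-0.94 ± 0.14 (SE), adjusted p = 7.2e-05). Ifit1 (ENSMUSG00000034459, chr19:34640871-34650009, plus strand) was at 2.06, 1.39 and 0.912 CPM with PBS and 0.566, 1.31 and 0.459 CPM with IL-3. IL-3 replicate 2 lay inside the PBS range, and the log2 fold change of -0.88 (95% interval -1.90 to 0.14) did not pass (adjusted p = 0.189). Without IL-3 replicate 2 it was -1.48 (adjusted p = 0.0682).

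Ifit3 was at 1.28, 1.44 and 0.684 CPM with PBS and 0.206, 0.0901 and 0.255 CPM with IL-3, from 23, 26 and 12 counts with PBS and 4, 2 and 5 with IL-3. The groups lay apart and the fitted change was -2.61 ± 0.56 (SE), adjusted p = 0.0018, but the gene passed the filter only through the PBS group. Of the 50-base words in the annotated transcripts of Ifit3, 51.2% also occur in Ifit3b, so the division of reads between these copies is uncertain. Ifit3b had 0, 4 and 7 counts with PBS and 0 in the 3 IL-3 libraries, so its groups overlapped at 0. Its summed PBS level was 4.19 times that of 3 counts over the IL-3 group, taken as the limit of a count of 0. This ratio leaves out the counting error of the PBS counts and is not a lower bound. Summed over both copies, the counts were 23, 30 and 19 with PBS and 4, 2 and 5 with IL-3, and the groups again did not overlap.

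OAS enzymes make the oligoadenylate messenger that activates RNase L, and the 2 tested members of this family moved in opposite directions. Oas3 (ENSMUSG00000032661, chr5:120753098-120777661, minus strand) was at 18.1, 17.7 and 15.7 CPM with PBS and 11.6, 11.4 and 9.65 CPM with IL-3. All IL-3 libraries were below the PBS libraries (-0.66 ± 0.12 (SE), adjusted p = 0.00043). Oasl1, an OAS-like protein without synthetase activity that is known to block translation of Irf7 mRNA, was at 0.445, 0.277 and 0.228 CPM with PBS and 2.16, 0.856 and 2.14 CPM with IL-3. Every IL-3 library was above every PBS library (2.41 ± 0.51 (SE), adjusted p = 0.0017), from 8, 5 and 4 counts with PBS and 42, 19 and 42 with IL-3. Its PBS libraries all lay under 10 counts, so it could enter the test only through the IL-3 group.

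The other 3 OAS genes were too low to be tested. Oas1a had 5, 7 and 5 counts with PBS and 2, 7 and 3 with IL-3, a ratio of 1.62 (PBS over IL-3, 95% exact counting interval 0.729 to 3.72), and shares 57.6% of its 50-base words with Oas1g. Oas2, next to Oas3 on chromosome 5, had 11, 7 and 6 and 1, 0 and 2 counts, a ratio of 9.14 (2.78 to 47.4). Oasl2, next to Oasl1 on the same chromosome, had 9, 3 and 9 and 3, 0 and 6 counts, a ratio of 2.67 (1.17 to 6.61). The intervals cover counting error only, and none is a test between groups.

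**Figure D3:**
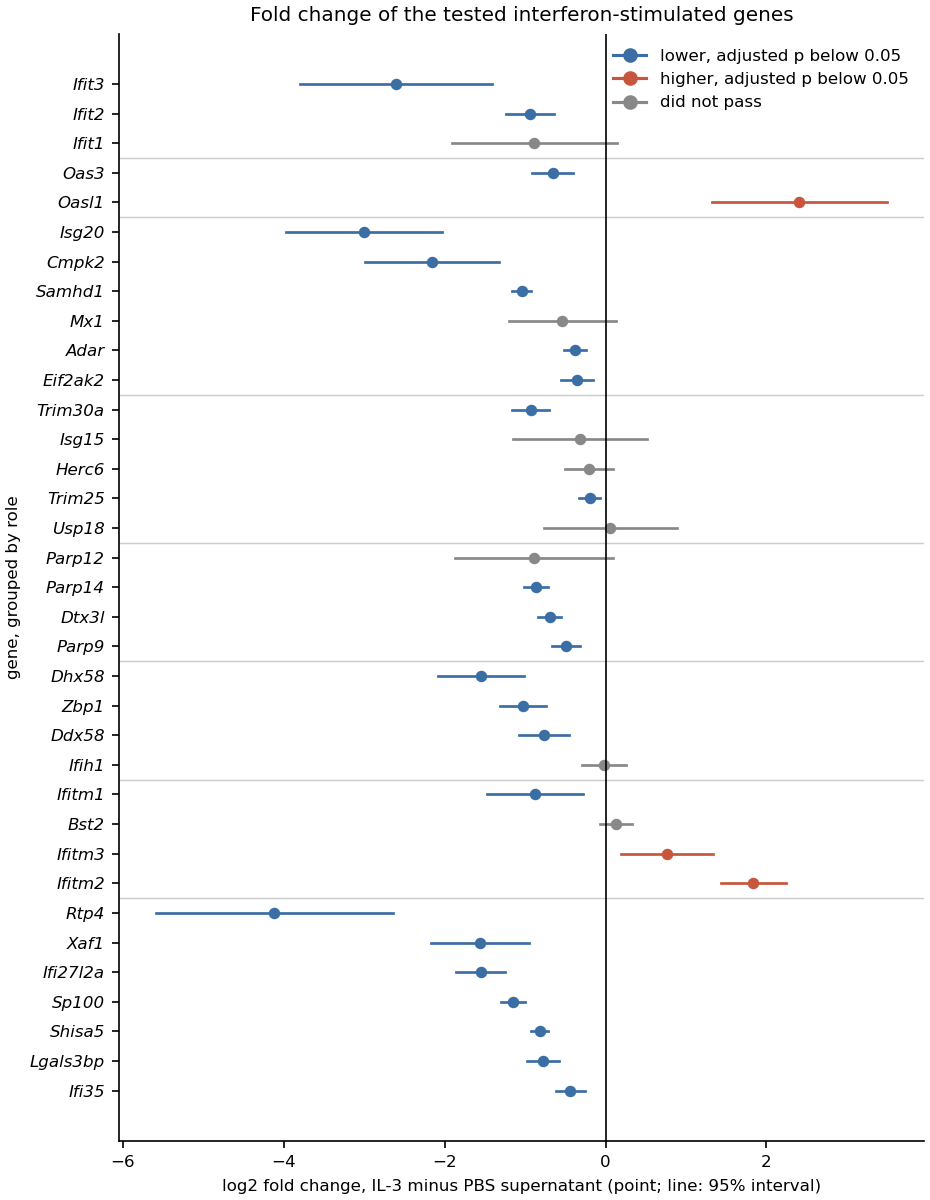
Log2 fold change, IL-3 minus PBS supernatant (points), with its 95% interval (lines) for the 35 tested genes grouped by role, coloured by the outcome of edgeR's quasi-likelihood test. Intervals are narrow for abundant genes such as Samhd1 (-1.04) and wide for rare ones such as Rtp4 (-4.12).

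In the ISG15 pathway, where a ubiquitin-like protein is attached to targets and removed again, Isg15, Usp18 and Herc6 did not pass. Isg15 (ENSMUSG00000035692, chr4:156199424-156200818, minus strand), whose response elements are shown above, was at 2.23, 1.39 and 1.08 CPM with PBS and 1.29, 1.26 and 1.23 CPM with IL-3. The IL-3 values lay within the PBS range, with a log2 fold change of -0.31 (95% interval -1.15 to 0.52, adjusted p = 0.605). Usp18, the protease that removes ISG15 and also blocks the receptor, was at 1.39, 1.55 and 1.25 CPM with PBS and 2.01, 1.35 and 1.02 CPM with IL-3. Its groups overlapped, with a log2 fold change of 0.06 (-0.77 to 0.89, adjusted p = 0.934). Herc6, the ligase that attaches ISG15 in the mouse, had a log2 fold change of -0.20 (-0.50 to 0.10, adjusted p = 0.318). The annotated exons of Herc6 share 13.7% of their bases with the gene model Gm45193 on the same strand. The interval of Isg15 still holds a fall of the size fitted for Samhd1, and that of Usp18 a rise of the size fitted for Ifitm3.

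Both TRIM ligases fell, by different amounts. Trim30a (ENSMUSG00000030921, chr7:104409025-104465193, minus strand), a regulator of inflammatory signalling, was at 48.5, 46.9 and 35.98 CPM with PBS and 22.04, 24.4 and 22.5 CPM with IL-3. The groups lay apart (-0.93 ± 0.11 (SE), adjusted p = 6.0e-06). Trim25, the ligase that assists RIG-I signalling, was at 122, 133 and 121 CPM with PBS and 114, 109 and 104 CPM with IL-3. Its groups did not overlap, and the change was -0.20 ± 0.06 (SE), adjusted p = 0.020. That call was lost without IL-3 replicate 2 (adjusted p = 0.0651), without IL-3 replicate 3 (adjusted p = 0.0997) and without PBS replicate 2 (adjusted p = 0.154).

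Poly-ADP-ribosyltransferase genes and their partner Dtx3l formed a block of neighbours on chromosome 16 in which all 3 genes fell. Parp14, which modifies proteins with single ADP-ribose units and is a cofactor of STAT6, was at 105, 106 and 98.2 CPM with PBS and 61.4, 50.7 and 57.7 CPM with IL-3. Dtx3l, a ubiquitin ligase, was at 90.1, 86.8 and 77.6 CPM with PBS and 50.9, 53.4 and 52.8 CPM with IL-3. Parp9, which forms a complex with DTX3L, was at 57.03, 53.4 and 53.7 CPM with PBS and 40.5, 41.4 and 34.7 CPM with IL-3. In each of them all IL-3 libraries lay below all PBS libraries. The log2 fold change was -0.87 ± 0.07 (SE), adjusted p = 6.9e-08 for Parp14. It was -0.70 ± 0.07 (SE), adjusted p = 6.7e-07 for Dtx3l and -0.49 ± 0.08 (SE), adjusted p = 0.00018 for Parp9. Dtx3l (chr16:35926511-35939151, minus strand) and Parp9 (chr16:35938470-35972605, plus strand) share 458 exonic bases, 8% of those of Dtx3l and 9.40% of those of Parp9, and reads there cannot be assigned without the strand. Parp12, on another chromosome, was at 1.56, 2.44 and 1.77 CPM with PBS and 1.29, 1.44 and 0.357 CPM with IL-3. Its groups did not overlap but the change of -0.89 (95% interval -1.87 to 0.09) did not pass (adjusted p = 0.165).

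Membrane restriction factors, which block the entry or release of enveloped viruses, did not move together: 1 of 4 fell, 2 rose and 1 did not pass. The 3 Ifitm genes lie next to each other on chromosome 7, between 140954837 and 141010770. Ifitm2 was at 3.45, 6.98 and 5.302 CPM with PBS and 17.8, 19.8 and 18.7 CPM with IL-3. The lowest IL-3 library was more than 2 times the highest PBS library, and the rise was 3.58-fold (log2 1.84 ± 0.19 (SE), adjusted p = 5.7e-06). Ifitm1 was at 3.34, 2.99 and 4.05 CPM with PBS and 1.596, 2.16 and 1.89 CPM with IL-3. Its groups also lay apart, in the other direction (-0.87 ± 0.28 (SE), adjusted p = 0.026).

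Ifitm3, the best known of the 3 as an inhibitor of virus entry, was at 2.28, 3.21 and 4.28 CPM with PBS and 7.004, 5.85 and 3.78 CPM with IL-3. IL-3 replicate 3 lay within the PBS range, and the rise passed narrowly (0.77 ± 0.27 (SE), adjusted p = 0.041). The call was lost without IL-3 replicate 1 (adjusted p = 0.196), IL-3 replicate 2 (adjusted p = 0.11), PBS replicate 1 (adjusted p = 0.115) or PBS replicate 2 (adjusted p = 0.0914), and with DESeq2 (adjusted p = 0.0602). The call of Ifitm1 was lost without IL-3 replicate 1 (adjusted p = 0.0911), IL-3 replicate 3 (adjusted p = 0.0688), PBS replicate 1 (adjusted p = 0.0503) or PBS replicate 3 (adjusted p = 0.13), and with DESeq2 (adjusted p = 0.0513). Ifitm2 passed under each of these. Ifitm3 shares 10.0% of its 50-base words with Ifitm1, and Ifitm2 shares 20.8% of its own with the gene model Gm11951. The annotation also places 268 exonic bases of Ifitm2, 40.9% of them, inside the gene model Gm45717 on the same strand. Gm45717 was not found among the genes with deposited counts, so reads were not divided with it. Any reads of that model from these bases would count toward Ifitm2.

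Bst2 encodes tetherin, which holds budding virus on the cell surface. Its level was 34.2, 39.1 and 36.7 CPM with PBS and 37.4, 45.5 and 37.1 CPM with IL-3. The groups overlapped, and the log2 fold change of 0.13 had a 95% interval of -0.07 to 0.33 (adjusted p = 0.342). A fall beyond the lower bound of -0.07 lies outside this interval, so the falls fitted for the called members do too.

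**Figure D4:**
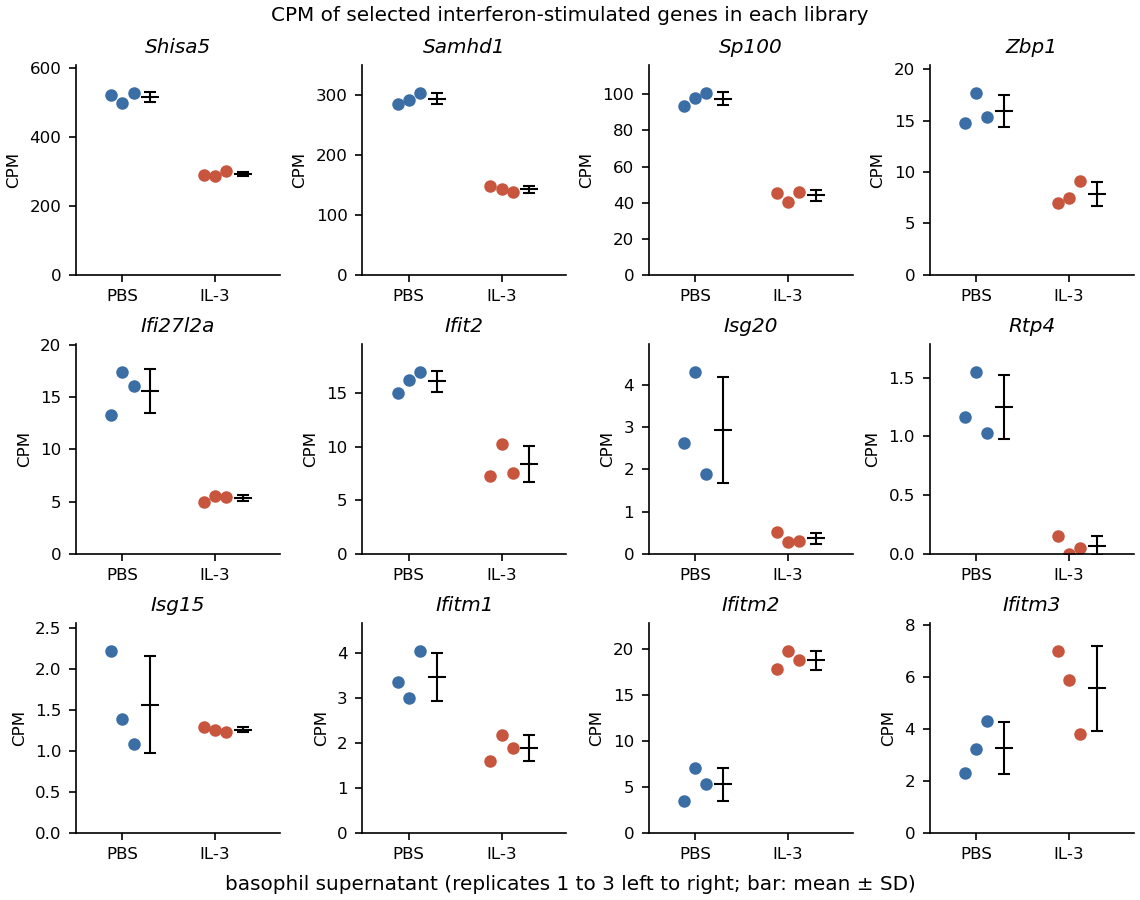
CPM (vertical axes, each from 0) of 12 genes in the 3 PBS and 3 IL-3 libraries (points, replicates 1 to 3 from left to right), with mean ± SD (bars). Shisa5, Samhd1 and Sp100 separate by far more than the spread of their groups, Isg15 and Ifitm3 overlap, and Ifitm2 runs opposite to Ifitm1.

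Of the 8 other interferon-induced proteins, 7 passed the filter and 7 fell. Shisa5 (ENSMUSG00000025647, chr9:109038565-109057777, plus strand), an endoplasmic reticulum protein also induced by p53, was the most abundant of the 42, at 521, 499.6 and 529 CPM with PBS and 290.4, 288 and 299.9 CPM with IL-3. The lowest PBS library was far above the highest IL-3 library (-0.82 ± 0.05 (SE), adjusted p = 1.6e-09). Sp100 (ENSMUSG00000026222, chr1:85649988-85709998, plus strand), a constituent of PML nuclear bodies, was at 93.8, 97.97 and 101 CPM with PBS and 45.5, 40.4 and 45.9 CPM with IL-3. This was a 2.22-fold fall with groups well apart (-1.15 ± 0.07 (SE), adjusted p = 1.2e-09).

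Ifi27l2a, a small mitochondrial protein, was at 13.3, 17.5 and 16.1 CPM with PBS and 4.995, 5.54 and 5.41 CPM with IL-3. The lowest PBS library was more than 2 times the highest IL-3 library (-1.55 ± 0.14 (SE), adjusted p = 2.7e-07). Lgals3bp, a secreted ligand of galectins, was at 36.6, 39.6 and 38.03 CPM with PBS and 21.3, 20.4 and 25.02 CPM with IL-3 (-0.78 ± 0.09 (SE), adjusted p = 6.8e-06). Ifi35, a partner of the interferon-induced protein NMI, was at 40.2, 38.6 and 45.1 CPM with PBS and 31.2, 31.4 and 28.8 CPM with IL-3 (-0.44 ± 0.09 (SE), adjusted p = 0.00083). In both of these genes the groups lay apart, and 16.8% of the exonic bases of Ifi35 are shared with the gene model Gm11626. That model had 0 counts in every library.

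Xaf1 and Rtp4 were measured from fewer counts. Xaf1, an antagonist of the apoptosis inhibitor XIAP, was at 5.898, 5.21 and 3.42 CPM with PBS and 1.29, 2.03 and 1.58 CPM with IL-3. Its lowest PBS library was above the highest IL-3 library (-1.56 ± 0.29 (SE), adjusted p = 0.00051). Rtp4, a chaperone of membrane receptors, had 21, 28 and 18 counts with PBS and 3, 0 and 1 with IL-3, or 1.17, 1.55 and 1.03 CPM with PBS and 0.154, 0 and 0.0511 CPM with IL-3. The groups lay apart, with a fitted change of -4.12 ± 0.69 (SE), adjusted p = 0.00021, and the summed level with PBS was 19.1 times that with IL-3 (95% exact counting interval 7.14 to 72.3). The fitted change rests on 4 counts in the IL-3 group: it was -5.36 without IL-3 replicate 1 and -3.51 without IL-3 replicate 2. The annotated exons of Rtp4 share 13.9% of their bases with the gene model Gm45338 on the same strand. Gm45338 was not found among the genes with deposited counts, so any of its reads from these bases would count toward Rtp4. Ifi44 had 1, 2 and 0 counts with PBS and 0 with IL-3, and no fold is given for so few.

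Levels per length differed widely among the 42 genes. On the TPM scale Shisa5 stood at 859.5 ± 48.5 TPM with PBS and 486 ± 15.4 TPM with IL-3, ahead of Samhd1 at 202 ± 9.197 TPM with PBS and 101 ± 4.57 TPM with IL-3. Sp100 at 103 ± 3.87 TPM with PBS and 47.04 ± 4.89 TPM with IL-3 and Bst2 at 92.2 ± 3.31 TPM with PBS and 102 ± 11.8 TPM with IL-3 came next with PBS. With IL-3, Bst2 and Samhd1 shared second place within their spread, while they had differed with PBS. Ifitm2 stood at 15.98 ± 4.87 TPM with PBS and 58.6 ± 3.18 TPM with IL-3, which moved it from rank 16 to rank 4 of the 42. Ifi27l2a stood at 64.7 ± 6.95 TPM with PBS and 22.5 ± 1.25 TPM with IL-3, which moved it from rank 5 to rank 10. In the PBS group the levels of Ifi27l2a and Ifi35 (60.6 ± 6.28 TPM) did not differ beyond their spread. Genes that are common markers of an interferon response stood far below, with Isg15 at 4.0 ± 1.604 TPM with PBS and 3.26 ± 0.0594 TPM with IL-3 and Ifit1 at 1.06 ± 0.439 TPM with PBS and 0.572 ± 0.336 TPM with IL-3. At the low end were Rsad2 and Ifi44, with means of 0.058 and 0.032 TPM in the PBS group. All values are mean ± SD of 3 libraries, and those of PBS replicate 2 were summed from isoforms.

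The pathway upstream of these genes was measured in the same libraries. Transcripts of the ligands were nearly absent: of 19 type I and type III interferon genes, 16 had 0 counts in all 6 libraries, Ifna2 and Ifnab had 1 count each, and Ifnk had 0 counts with PBS and 7 with IL-3. A count of 0 in these T cell libraries does not bear on interferon carried in the supernatant. Ifng, the type II interferon that activated CD8 T cells make, rose from 876 ± 57.3 to 1701 ± 41.6 CPM (mean ± SD, n = 3 each; 0.96 ± 0.05 (SE), adjusted p = 7.4e-10).

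Of 16 receptor and signalling genes, 9 fell, 3 rose (Ifngr2, Jak2 and Stat3) and 4 did not pass. Both chains of the type I receptor fell, Ifnar2 from 42.3 ± 1.71 to 24.98 ± 1.52 CPM (-0.76 ± 0.08 (SE), adjusted p = 2.5e-06) and Ifnar1 from 101 ± 7.72 to 86.2 ± 2.71 CPM (-0.23 ± 0.06 (SE), adjusted p = 0.011). Ifngr1, the ligand-binding chain of the interferon gamma receptor, fell from 96.5 ± 4.64 to 32.97 ± 2.36 CPM (-1.55 ± 0.07 (SE), adjusted p = 5.8e-11). The kinase gene Jak2 rose (1.10 ± 0.06 (SE), adjusted p = 1.0e-09).

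Among the transcription factors, Stat2 and Irf9 of the complex that binds the response element did not pass. Stat2 was at 24.4 ± 0.593 CPM with PBS and 25.9 ± 2.49 CPM with IL-3 (0.09, adjusted p = 0.541) and Irf9 at 25.4 ± 3.19 CPM with PBS and 22.7 ± 0.9699 CPM with IL-3 (-0.16, adjusted p = 0.261). Irf7, the factor that amplifies interferon production, fell from 3.56 ± 0.727 to 0.798 ± 0.274 CPM (-2.16 ± 0.36 (SE), adjusted p = 0.00018). Irf1 (-0.70 ± 0.08 (SE), adjusted p = 1.1e-05) and Irf8 (-0.66 ± 0.05 (SE), adjusted p = 5.4e-08) also fell.

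Inhibitors of the pathway were mostly higher. Of 6 negative regulators 4 rose and 2 fell, and Socs1, which blocks JAK kinases, rose from 29.7 ± 1.93 to 52.4 ± 0.682 CPM (0.82 ± 0.08 (SE), adjusted p = 4.6e-07). Socs3 (0.97 ± 0.10 (SE), adjusted p = 9.0e-07), Cish (0.44 ± 0.05 (SE), adjusted p = 2.0e-06) and Ptpn2 (0.28 ± 0.06 (SE), adjusted p = 0.0020) rose as well, while Ptpn6 (-0.31 ± 0.05 (SE), adjusted p = 0.00023) and Pias1 (-0.50 ± 0.09 (SE), adjusted p = 0.00025) fell. Of 8 tested receptors and adaptors upstream of interferon production, 4 fell, 1 rose and 3 did not pass. Tlr7, a sensor of single-stranded RNA, had the largest fall of them (-2.45 ± 0.23 (SE), adjusted p = 2.9e-07), and Tmem173, which encodes STING, fell too (-0.54 ± 0.06 (SE), adjusted p = 3.2e-06).

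A pair of other interferon-inducible families was measured beside the 42 genes. Of 11 guanylate-binding protein genes, GTPases that act on vacuoles of pathogens, 10 were tested and 10 fell, with a median log2 fold change of -2.25 beside -0.78 for the tested interferon-stimulated genes. Gbp11, at 1, 4 and 2 counts with IL-3, passed the filter only through the PBS group, and without it 9 of 9 fell with a median of -2.24. Gbp6 (-2.54 ± 0.09 (SE), adjusted p = 2.1e-12) and Gbp4 (-2.20 ± 0.09 (SE), adjusted p = 6.1e-12) had the smallest p with Gbp7 and Gbp2. In the Ifi200 family of DNA-binding proteins 7 of 8 tested genes fell and Aim2 rose (0.34 ± 0.08 (SE), adjusted p = 0.0041). Ifi206, Ifi208 and Ifi213 passed the filter only through the PBS group, and without them 4 of 5 fell. Ifi203 fell from 49.9 ± 5.27 to 1.82 ± 0.651 CPM (-4.75 ± 0.18 (SE), adjusted p = 3.7e-10). The difference between these families and the 42 genes was not tested.

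**Figure D5:**
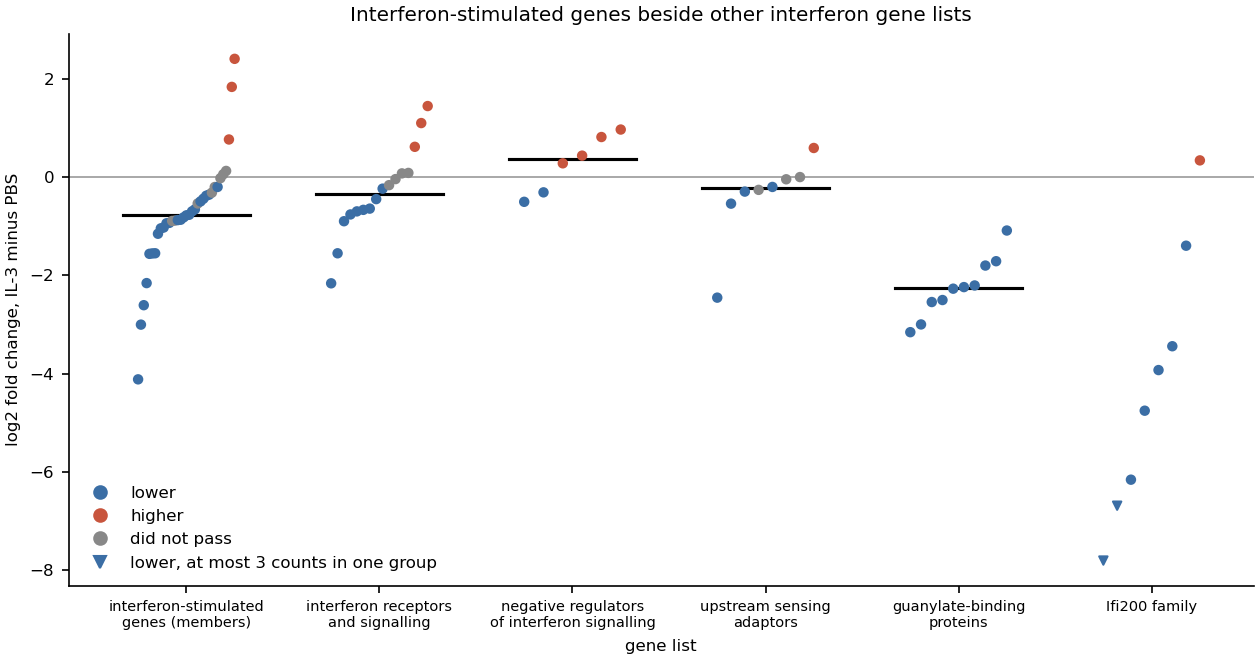
Log2 fold change, IL-3 minus PBS supernatant, of the tested genes of 6 lists (points coloured by the outcome of the test), with the list's median (black line). The median is -0.78 for the interferon-stimulated genes and -2.25 for the guanylate-binding proteins; triangles mark genes with at most 3 counts in 1 group, whose fitted values are no bounds, and no median is drawn for the Ifi200 family that holds them.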

How the data were processed

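Poly(A) RNA from 6 CD8 T cell libraries was sequenced, per the labels' protocols, and groups and replicate numbers come from the sample titles. The authors deposited expected counts per gene, estimates that divide ambiguous reads and need not be whole, for 46517 gene identifiers. The authors also deposited TPM, scaled for transcript length and library, per gene for 5 libraries and per isoform for PBS replicate 2, summed here per gene (99.7% of it matched). The submitters' processing notes name RSEM 1.2.12, Bowtie2 2.2.0, edgeR 3.20.9 and GRCm38, and no source used here gives their roles, the annotation or the strand setting.

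Expected counts were rounded and tested across all genes with edgeR 4.0.16 in R 4.3.3 (filterByExpr, TMM, robust quasi-likelihood fit on group, Benjamini-Hochberg adjustment, threshold 0.05). The procedure was also run on simulated data with known changes, and its recovery of small changes there is not given here. CPM use TMM-scaled library sizes. The common biological coefficient of variation was 0.0939. Every SE is that of the log2 fold change, and every ± after a level is an SD over 3 libraries. For genes that were not tested, ratios of summed counts have exact binomial intervals at 95%. Coordinates are those of GENCODE M21 on GRCm38, and promoter windows those of RefSeq on GRCm38.p6.

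The members and lists were chosen with earlier results of these data known, so counts over them describe these genes and are not independent support. Values per library are given for called members with an absolute log2 fold change of at least 0.5, for the 4 most abundant members with smaller called changes, and for Isg15, Ifit1, Ifit3, Mx1, Oas3, Usp18, Ifih1, Bst2 and Ifitm3 whatever their result. A result that would fall under this rule is not reported here. Of the other lists, a preset panel and the genes of smallest p, at most 4 a list, are named, while Ptpn2, Pias1, Ifngr2, Stat3 and Aim2 were named after their values were seen. Parp12 is shown in full for the same reason, as are the genes that were not tested. Alternatives were other scalings, filters and thresholds, a replicate block, each library left out, DESeq2 1.42.0, and limma 3.58.1 by voom and on log2 TPM with pseudocounts of 1 and 0.1. The fit on TPM of 6 libraries and the counts without genes that lay under the filter's limit in every library of 1 group were chosen after seeing the data. Python 3.11.15, pandas 2.3.3, scipy 1.17.1 and matplotlib 3.10.9 were used.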

Additional observations from a re-analysis of the deposited data

How the results depend on the processing

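Over 18 alternatives, 20 of the 35 tested members kept direction and call in every one that gave them a value (15 for Ifit1 and 16 for Parp12), 14 of them lower and 1 higher (Ifitm2). Calls were lost in 11 of 18 alternatives for Ifitm3, 8 for Trim25, 7 for Ifitm1, 4 for Eif2ak2 and 3 for Cmpk2. Oasl1 lost its call in 3 of 17. Ifit2, Ifit3, Trim30a, Dhx58, Zbp1 and Xaf1 lost theirs in 1 each. The median log2 fold change of the members stayed between -0.81 and -0.65. Leaving out each library in turn gave 22 to 24 members lower, 2 to 3 higher and a median from -0.81 to -0.70. In all, 1601 to 2102 genes were lower and 1456 to 1916 higher. Members whose groups did not overlap then numbered 27 to 31. That count cannot fall when a library is left out, and no share over all genes is given beside it, so it shows nothing about stability. On log2(TPM + 1), which has 5 libraries with gene values, 1 member was higher, and 1156 genes in all. On log2(TPM + 0.1) these were 1 and 1158. On log2(TPM + 1) with no filter, 14 members were lower and 1 higher, and 820 and 669 genes in all. An adjusted p below 0.01 left 1217 genes higher in all. Members near 0 changed sign: Ifih1 to 0.0009 with library size only, 0.0244 on TPM of 6 libraries and, over libraries left out, from -0.0683 to 0.0351 (without IL-3 replicate 2). Usp18 ranged from -0.234 (without IL-3 replicate 1; -0.0132 without PBS replicate 3) to 0.26 and Isg15 from -0.52 to 0.0255 (without PBS replicate 1). The cause was not tested. None of these was called.

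Same-numbered replicates of the groups were not shown to pair: the correlations of their deviations were -0.148, 0.0517 and 0.255. Replicates 3 correlated best with each other, and the other libraries did not correlate best with their own number. With the replicate number as a block, 24 members were lower and 2 higher (Ifitm3 lost its call), the median was -0.78, and 1776 genes in all were lower and 1634 higher. Depth limits Rsad2, Ifi44, Ifit3b, Mx2, Oas1a, Oas2 and Oasl2, which were too low to be tested.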
